A study of Mus musculus with 24 samples.

Results

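The 10 genes described here belong to the oxidative stress response that the transcription factor NRF2 controls: Nfe2l2, which encodes NRF2 itself, its inhibitor Keap1, and the targets Slc7a11, Gclc, Gclm, Srxn1, Txnrd1, Hmox1, Nqo1 and Osgin1. They were the rows of the count table whose Entrez identifier maps to these mouse symbols, 10 of 24454 genes, and all 10 passed the filter on low counts that left 16317 genes to test. RNA came from organs of Corti (OCs), the sensory epithelium of the cochlea, of C57BL/6N mouse pups of both sexes at 5 days of age. OCs were first kept for 24 h without drugs, in medium with penicillin and fetal calf serum that all groups shared. They then stayed for 6 or 24 h in drug-free medium (CTRL) or in medium to which gentamicin at 50 μM (GM), pioglitazone at 10 μM (PIO) or both at these doses (PIO+GM) had been added. Gentamicin, an aminoglycoside antibiotic, damages hair cells, and pioglitazone activates the nuclear receptor PPAR-γ. Each of the 8 groups held 3 libraries, 24 in all, with 6 OCs pooled in each, and the sources say that each treatment was run in triplicate but not whether the pools came from separate litters, so p-values measure the spread between these pools.

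NRF2 is made continuously and is normally held in the cytoplasm by KEAP1, which passes it to a ubiquitin ligase for destruction. Oxidants and electrophiles modify cysteines of KEAP1, NRF2 then accumulates in the nucleus, pairs with small MAF proteins and binds antioxidant response elements in its target genes. Control is thus mostly on the protein, and the RNA of the targets is the usual readout. In the cochlea this response is studied because aminoglycosides and noise raise reactive oxygen species in hair cells, and because glutathione and thioredoxin are main defences against them.

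Library totals ranged from 7211357 to 15548856 counts (median 12538495), so that 3 counts correspond to 0.193 to 0.416 CPM (counts scaled to the library total, so that libraries of unequal depth can be compared). This limit and the olfactory sum given here use the totals as counted, and all other CPM and RPKM values use totals adjusted by TMM, a scaling against differences in composition. The markers of the labelled tissue were present, in that all 16 hair cell and all 14 supporting cell markers had counts in every library. The lowest were 3 counts, for Ocm and Hes5. All macrophage, Schwann cell and glia, spiral ganglion neuron, fibroblast and endothelial markers also had counts in every library, so presence alone does not single out the labelled tissue. The PIO+GM library of replicate number 3 at 6 h had the lowest total and also the highest summed level of 1473 olfactory and vomeronasal receptor genes, 275 CPM against 38.0 to 207 CPM in the others. In these bulk pools, fewer cells of a type and less RNA per cell cannot be told apart.

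Promoter windows of 300 bases (250 before to 50 after a gene's start, RefSeq, GRCm38.p6) were searched on both strands for the core of the antioxidant response element, TGACNNNGC, because these genes were grouped as NRF2 targets. The table matched 8 of the 10 genes, all but Hmox1 and Gclc, with 10 windows among them. A match stood in 4 of these 10 windows, those of Nfe2l2, Gclm, Srxn1 and 1 of the 3 starts of Txnrd1, and in 12.4% of all 32851 windows. Each is shown on the strand where the core reads as spelled, with the core in capitals.
Nfe2l2: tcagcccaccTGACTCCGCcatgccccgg
Gclm: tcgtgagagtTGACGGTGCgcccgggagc
Txnrd1: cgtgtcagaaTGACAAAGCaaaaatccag
Srxn1: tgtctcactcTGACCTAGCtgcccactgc
The Nfe2l2 stretch lies at chr2:75704885-75704913 on the minus strand, with the core 232 bases before the start. That of Gclm lies at chr3:122245413-122245441 on the minus strand, 126 bases before the start, that of Txnrd1 at chr10:82859104-82859132 on the minus strand, 84 bases before the start, and that of Srxn1 at chr2:152105542-152105570 on the minus strand, 28 bases after the start. The start meant is that of the promoter window, which for Gclm lies 70 bases and for this window of Txnrd1 25255 bases inside the gene bounds printed for them, and for Nfe2l2 and Srxn1 at their outer end. These are matches of letters only, and binding was not measured.

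Slc7a11 is also a known target of ATF4, the transcription factor of the integrated stress response, and its window was therefore searched for the core of the amino acid response element, TGATGNAA. It held 2 matches, whereas 3.97% of all windows held at least 1, none of the other 7 genes with a window did, and 6 of the 15 listed ATF4 target genes with a window did.
Slc7a11, first: ctcatgtggcTGATGCAAacctggagaa
Slc7a11, second: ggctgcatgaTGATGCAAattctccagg
The first lies at chr3:50443662-50443689 on the minus strand, 59 bases before the start, and the second at chr3:50443643-50443670 on the plus strand, 40 bases before the start. This start of Slc7a11 lies 55474 bases inside the gene bounds printed for it. Which start was used in these OCs was not measured. No match of one core overlapped a match of the other in these windows. The core of the antioxidant response element also stood in windows of 4 of those 15 ATF4 target genes, against 4 of the 8 genes described here.

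Levels between genes were compared per length, as RPKM (CPM divided by the deposited gene length in kilobases), over the 12 libraries of a time point. At 6 h Srxn1 ranked first by its median, with 33.7, 60.5 and 202 RPKM as lowest, median and highest library, followed by Txnrd1 (40.7, 46.9 and 56.9 RPKM) and Hmox1 (29.5, 39.8 and 61.4 RPKM), and the ranges of these 3 overlapped. Nfe2l2 (median 27.8 RPKM), Gclc (27.3 RPKM) and Slc7a11 (26.7 RPKM) came next with ranges that also overlapped, then Keap1 (14.5 RPKM), Gclm (13.7 RPKM), Nqo1 (5.45 RPKM) and Osgin1 (1.59 RPKM). The Osgin1 range, 0.655 to 2.79 RPKM, lay below that of every other gene of the group at 6 h.
At 24 h the order was different. Txnrd1 led with a median of 26.9 RPKM, followed by Hmox1 (19.5 RPKM), Nqo1 (17.6 RPKM), Nfe2l2 (16.9 RPKM), Keap1 (15.0 RPKM) and Gclc (13.9 RPKM), each overlapping its neighbour in that order. Srxn1 (10.3 RPKM), Gclm (8.65 RPKM), Slc7a11 (3.17 RPKM) and Osgin1 (0.658 RPKM) closed the order. Srxn1 thus moved from rank 1 to rank 7, and Nqo1 from rank 9 to rank 3 over all groups. By group means at 24 h Srxn1 stood at rank 7 in all 4 treatments, and Nqo1 was at 20.6 RPKM in CTRL (rank 3) and 22.9 RPKM in GM (rank 2) but at 13.0 RPKM in PIO (rank 6) and 14.3 RPKM in PIO+GM (rank 5). The plot of levels per length shows that the 6 h and 24 h ranges of Srxn1, Txnrd1, Nfe2l2, Gclc and Slc7a11 did not overlap, and that those of Keap1 did. The share of all tested genes that separate in this way is not given, here or for the ranges below.

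**Figure D1:**
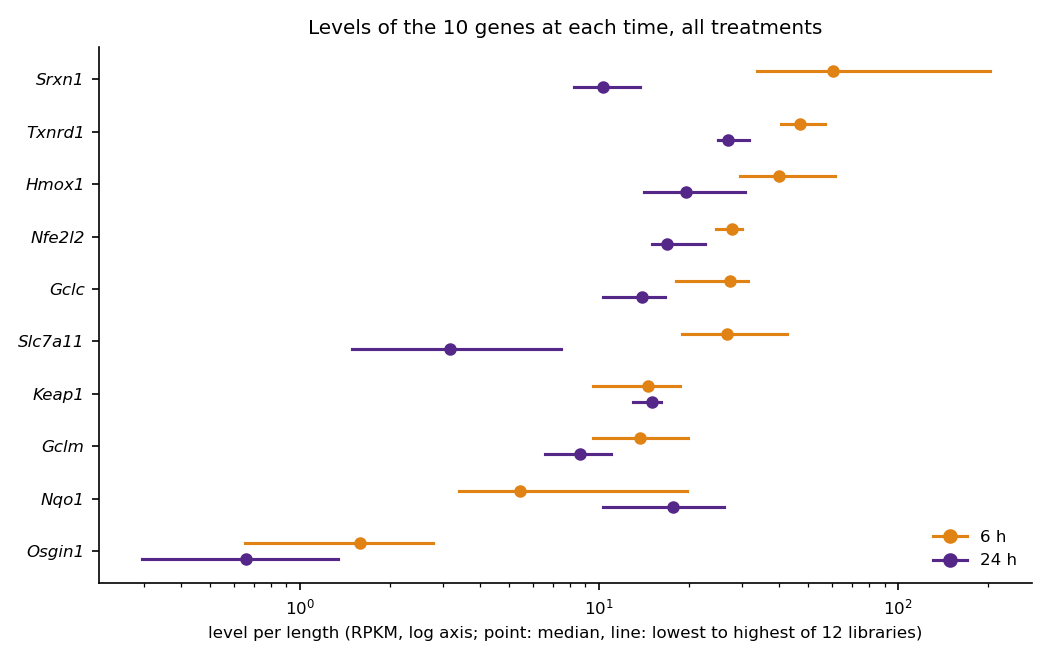
Level per length of each gene in RPKM on a log axis, with a point at the median and a line from the lowest to the highest of 12 libraries, at 6 h (orange) and 24 h (purple), all treatments together. Srxn1 had a median of 60.5 RPKM at 6 h and 10.3 RPKM at 24 h, Nqo1 5.45 and 17.6 RPKM, and Keap1 14.5 and 15.0 RPKM.

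The first comparison asks how far the genes differed between 24 h and 6 h of culture within a treatment. In CTRL, 8 of the 10 genes passed the threshold of 0.05 on the adjusted p of edgeR's quasi-likelihood test, 7 lower and 1 higher at 24 h, against 28.0% of all tested genes in either direction and 13.2% lower. The same number, 7 of 10, was lower in GM (all genes 24.2%, lower 11.7%), in PIO (29.0%, lower 15.8%) and in PIO+GM (34.6%, lower 17.0%), with no gene of the group higher in these 3. Without CTRL replicate 2 at 6 h, the CTRL count of 8 became 5, all lower. The median log2 fold change of the 10 genes was -0.88 in CTRL, -0.91 in GM, -0.77 in PIO and -0.89 in PIO+GM, and that of all tested genes lay between 0.01 and 0.03. Markers of other cells also differed between the times: of 10 Schwann cell and glia markers 4 were lower and 1 higher at 24 h in CTRL (median log2 fold change -1.57), and 6 and 1 in GM (-1.87), 4 and 1 in PIO (-0.94) and 4 and 2 in PIO+GM (-1.31). Of 11 fibroblast and mesenchyme markers, 5 were higher and 0 lower in CTRL (0.56), 4 and 0 in GM (0.71), 3 and 1 in PIO (0.56) and 4 and 1 in PIO+GM (0.13). Their part in the differences of the 10 genes was not tested. Treatment time and total time in culture cannot be told apart, and no library from before culture was analysed here.

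Nfe2l2 (Entrez 18024, chr2:75675513-75704663) was lower at 24 h in all 4 treatments. In CTRL it stood at 6.72, 6.73 and 6.74 log2 CPM in the 3 libraries at 6 h and at 6.43, 5.93 and 6.23 log2 CPM at 24 h, without overlap. The log2 fold change was -0.52 in CTRL (95% interval -0.78 to -0.26, adjusted p = 0.00459), -0.56 in GM (adjusted p = 0.00306), -0.69 in PIO (adjusted p = 0.000749) and -0.74 in PIO+GM (adjusted p = 0.000277). Its 12 libraries at 6 h spread over 6.55 to 6.85 log2 CPM, and those at 24 h over 5.84 to 6.43 log2 CPM.
Keap1 (Entrez 50868, chr9:21229730-21239332), the inhibitor, did not pass the test in any treatment with all libraries and no correction. Its CTRL libraries were at 6.26, 5.94 and 6.05 log2 CPM at 6 h and at 5.94, 6.11 and 6.03 log2 CPM at 24 h, which overlap. The log2 fold change was -0.06 in CTRL (95% interval -0.40 to 0.29), -0.08 in GM, 0.15 in PIO and 0.35 in PIO+GM (adjusted p = 0.108), and the sign of these values changed with the processing. It was called higher at 24 h in PIO+GM without PIO+GM replicate 1 at 6 h (0.50, adjusted p = 0.0389) and called lower in GM with the GC correction and the replicate block together (-0.18, adjusted p = 0.0444).

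**Figure D2:**
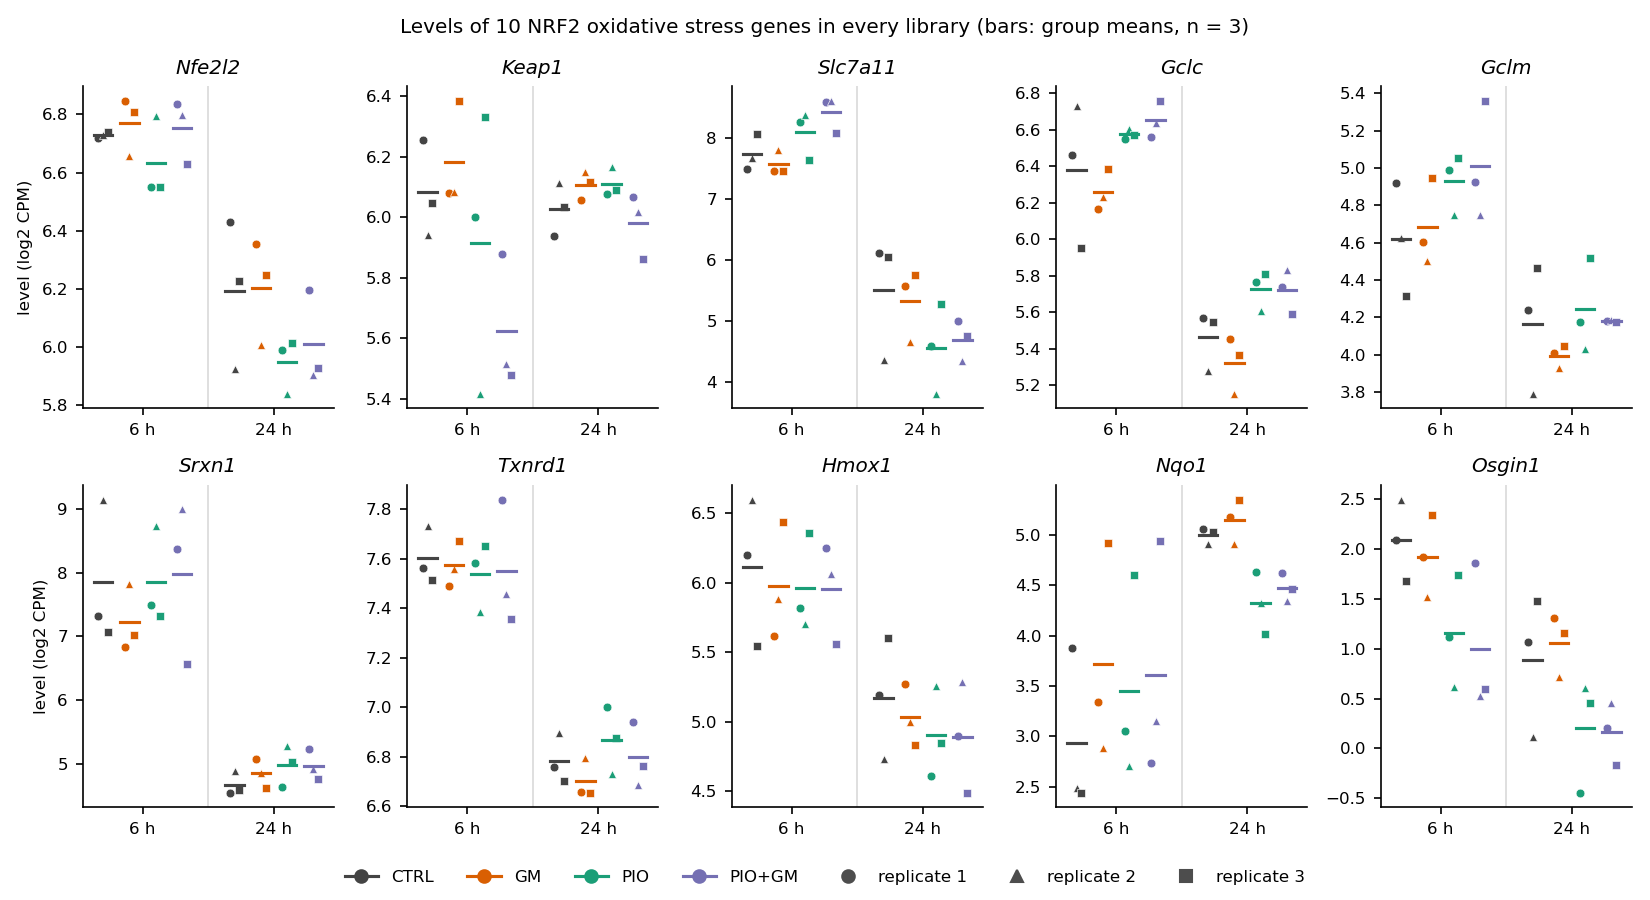
Level of each gene in log2 CPM in all 24 libraries, by time and treatment (colour) and replicate number (circle 1, triangle 2, square 3), with group means of n = 3 as bars. Nfe2l2 spanned 6.55 to 6.85 log2 CPM at 6 h and 5.84 to 6.43 log2 CPM at 24 h, and the 6 h libraries of replicate number 2 are the highest for Srxn1 in every treatment.

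Slc7a11 (Entrez 26570, chr3:50364936-50499087) encodes the light chain of the cystine/glutamate exchanger, which imports the cystine that limits glutathione synthesis. At 6 h its levels were 7.49, 7.67 and 8.08 log2 CPM in CTRL, 7.45, 7.80 and 7.46 log2 CPM in GM, 8.26, 8.39 and 7.64 log2 CPM in PIO, and 8.59, 8.62 and 8.08 log2 CPM in PIO+GM. At 24 h they were 6.11, 4.36 and 6.04 log2 CPM in CTRL, 5.57, 4.66 and 5.76 log2 CPM in GM, 4.58, 3.80 and 5.28 log2 CPM in PIO, and 4.99, 4.33 and 4.75 log2 CPM in PIO+GM. Every 24 h library lay below every 6 h library, and replicate number 2 was the lowest of its group at 24 h in all 4 treatments. Slc7a11 was 4.22-fold lower at 24 h in CTRL (adjusted p = 0.000801, log2 fold change -2.08 ± 0.40 (SE, n = 3 against 3)), 4.54-fold in GM, 11.0-fold in PIO and 13.4-fold in PIO+GM (adjusted p = 8.85e-06, log2 fold change -3.74 ± 0.43 (SE)).
Gclc (Entrez 14629, chr9:77754535-77794489) and Gclm (Entrez 14630, chr3:122245487-122267215) encode the catalytic and the modifier subunit of glutamate-cysteine ligase, which carries out the first step of glutathione synthesis. Gclc stood at 6.46, 6.73 and 5.95 log2 CPM in CTRL at 6 h and at 5.57, 5.28 and 5.55 log2 CPM at 24 h. It was lower at 24 h in every treatment without overlap, with log2 fold changes of -0.95 in CTRL, -0.94 in GM, -0.85 in PIO and -0.93 in PIO+GM, the largest adjusted p being 0.000468. Gclm ranged from 4.31 to 5.36 log2 CPM at 6 h and from 3.79 to 4.52 log2 CPM at 24 h. It was lower in GM (log2 fold change -0.71), PIO (-0.68) and PIO+GM (-0.86), and its value in CTRL was -0.46 (95% interval -0.86 to -0.05, adjusted p = 0.0878). The Gclm calls changed with single libraries: that in GM was lost without replicate 3 at 6 h (adjusted p = 0.0630), that in PIO without replicate 1 (adjusted p = 0.0515) or 2 (adjusted p = 0.0693) at 24 h, and the CTRL value was called without replicate 3 at 6 h (-0.60, adjusted p = 0.0397).

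Srxn1 (Entrez 76650, chr2:152105524-152111376) encodes sulfiredoxin, which reduces over-oxidised peroxiredoxins back to their active form. At 6 h its levels were 7.32, 9.15 and 7.08 log2 CPM in CTRL, 6.83, 7.82 and 7.03 log2 CPM in GM, 7.50, 8.73 and 7.32 log2 CPM in PIO, and 8.37, 9.00 and 6.57 log2 CPM in PIO+GM. At 24 h they were 4.54, 4.88 and 4.58 log2 CPM in CTRL, 5.07, 4.86 and 4.62 log2 CPM in GM, 4.63, 5.28 and 5.02 log2 CPM in PIO, and 5.23, 4.91 and 4.76 log2 CPM in PIO+GM. The 6 h libraries spread over 6.57 to 9.15 log2 CPM and those at 24 h over 4.54 to 5.28 log2 CPM, with no overlap between the times. By edgeR, Srxn1 was 11.3-fold lower at 24 h in CTRL (adjusted p = 0.000225, log2 fold change -3.50 ± 0.57 (SE)), 5.43-fold in GM, 8.01-fold in PIO and 9.97-fold in PIO+GM. Without replicate number 2 at 6 h it was 5.77-fold lower in CTRL and 5.34-fold lower in PIO, and the 4 treatments kept their calls.
The summed level of the 10 Schwann cell and glia markers was 2431 CPM in that CTRL library, against 1591 and 982 CPM in the other 2 at 6 h, and was also highest in replicate number 2 in GM (3138 CPM) and PIO (1885 CPM), but not in PIO+GM. The same CTRL library was also the highest of its group for the macrophage (182 CPM), erythroid (655 CPM), endothelial (961 CPM), fibroblast (7123 CPM) and stria (417 CPM) lists and the lowest for supporting cells (4186 against 7294 and 11106 CPM) and hair cells (643 against 875 and 1159 CPM). The part of these levels in the Srxn1 result was not tested.
Txnrd1 (Entrez 50493, chr10:82833951-82897724), the cytosolic thioredoxin reductase, had the narrowest spread of the targets, 7.35 to 7.84 log2 CPM at 6 h and 6.66 to 7.00 log2 CPM at 24 h. It was lower at 24 h in all treatments, by a log2 fold change of -0.82 ± 0.12 (SE) in CTRL, -0.87 in GM, -0.67 in PIO and -0.76 in PIO+GM, each without overlap and with an adjusted p of at most 0.000667.

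Hmox1 (Entrez 15368, chr8:75093618-75100593) encodes heme oxygenase, which breaks heme down to biliverdin, iron and carbon monoxide. Its CTRL libraries were at 6.20, 6.60 and 5.55 log2 CPM at 6 h and at 5.19, 4.73 and 5.60 log2 CPM at 24 h, and the highest at 24 h reached past the lowest at 6 h. The log2 fold change was -0.96 in CTRL (95% interval -1.58 to -0.35, adjusted p = 0.0202), -0.98 in GM (adjusted p = 0.0213), -1.06 in PIO (adjusted p = 0.0123) and -1.06 in PIO+GM (adjusted p = 0.00998). Outside CTRL the 2 times did not overlap. The CTRL call was lost without replicate 2 at 6 h (-0.70, adjusted p = 0.139) or without replicate 1 or 2 at 24 h (adjusted p = 0.0597 and 0.0971). The call was also lost in GM without replicate 3 at 6 h (-0.71, adjusted p = 0.110) or replicate 2 or 3 at 24 h (adjusted p = 0.0629 and 0.0804), in PIO without replicate 1 at 24 h (adjusted p = 0.0614) and in PIO+GM without replicate 3 at 24 h (adjusted p = 0.0549).
The 7 erythroid markers, which include the globins, were also lower at 24 h, with a summed level of 179 to 655 CPM at 6 h and 78.5 to 242 CPM at 24 h (5 of 6 tested markers lower in CTRL and in GM, 3 lower and 1 higher in PIO, 3 lower in PIO+GM), and CTRL replicate 2 at 6 h had the 655 CPM. The summed level of the 16 macrophage markers was 73.1 to 186 CPM at 6 h and 109 to 329 CPM at 24 h, with 2 called higher and 0 lower in CTRL and in GM, 4 higher and 2 lower in PIO, and 5 higher and 2 lower in PIO+GM. None of the markers of these lists was at 0 in every library, and their part in the Hmox1 result was not tested.
Nqo1 (Entrez 18104, chr8:107388225-107403205), a quinone reductase, was the 1 gene of the group called higher at 24 h, in CTRL. At 6 h it stood at 3.88, 2.49 and 2.44 log2 CPM in CTRL, 3.35, 2.89 and 4.92 log2 CPM in GM, 3.06, 2.70 and 4.60 log2 CPM in PIO, and 2.74, 3.15 and 4.94 log2 CPM in PIO+GM. At 24 h the levels were 5.06, 4.91 and 5.03 log2 CPM in CTRL, 5.18, 4.91 and 5.35 log2 CPM in GM, 4.63, 4.32 and 4.02 log2 CPM in PIO, and 4.63, 4.34 and 4.46 log2 CPM in PIO+GM. Replicate number 3 at 6 h was high in the 3 drug groups and the lowest in CTRL. The difference was 3.77-fold in CTRL (log2 fold change 1.92, 95% interval 0.71 to 3.13, adjusted p = 0.0186), and it did not pass the test in GM (1.17, adjusted p = 0.134), PIO (0.63, adjusted p = 0.413) or PIO+GM (0.57, adjusted p = 0.446). The CTRL call was lost without replicate 2 (adjusted p = 0.0916) or replicate 3 (adjusted p = 0.0704) of CTRL at 6 h, and the log2 fold change was 2.57 without replicate 1. Without replicate 3 at 6 h, the high library, Nqo1 was called higher in GM (2.05, adjusted p = 0.0201) and in PIO+GM (1.54, adjusted p = 0.0479). Of 18 alternatives to the main processing, 3 called it in GM, 0 in PIO and 1 in PIO+GM.
Osgin1 (Entrez 71839, chr8:119425882-119446257), an oxidative stress induced growth inhibitor, was the least abundant, with 10 to 72 counts at 6 h and 9 to 31 counts at 24 h. In CTRL it stood at 2.09, 2.49 and 1.67 log2 CPM at 6 h and at 1.06, 0.11 and 1.47 log2 CPM at 24 h. The 2 times did not overlap in any treatment, but the test was passed in CTRL alone (log2 fold change -1.21, adjusted p = 0.0419), with values of -0.94 in GM, -1.07 in PIO and -1.06 in PIO+GM and a largest adjusted p of 0.113. The CTRL call was lost without replicate 1 or 2 at either time (adjusted p between 0.0760 and 0.175). In each of GM, PIO and PIO+GM, Osgin1 was called in 2 of 17 alternatives to the main processing.

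**Figure D3:**
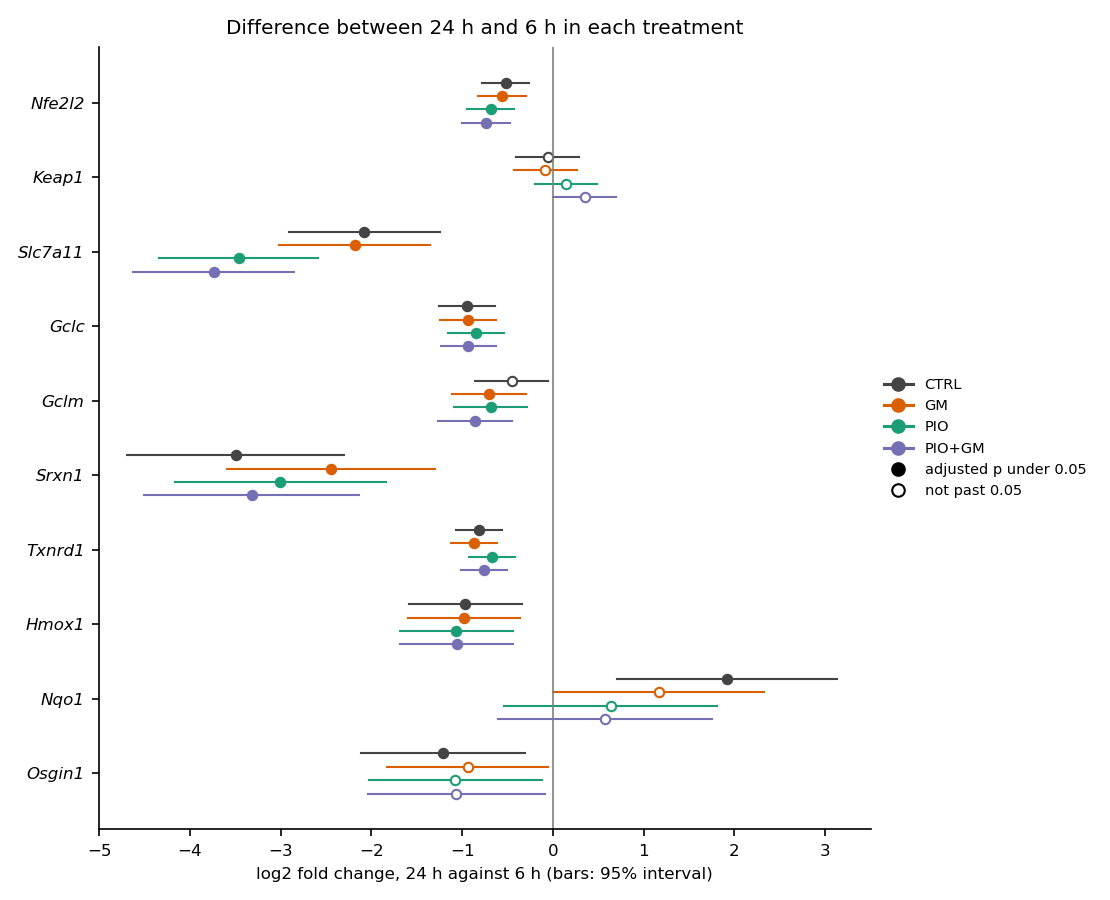
log2 fold change of each gene at 24 h against 6 h in CTRL, GM, PIO and PIO+GM (colours), with the 95% interval as a bar, a filled point for an adjusted p under 0.05 and an open one otherwise. Nfe2l2, Slc7a11, Gclc, Srxn1, Txnrd1 and Hmox1 have 4 filled points below 0 each, Nqo1 has 1 filled point above 0 (1.92 in CTRL), and Keap1 has none.

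Other genes of the pathway were read from 9 lists, to be set beside the 28.0% of all tested genes called in CTRL in either direction and the 13.2% called lower. Of the 14 NRF2 regulators and partners, 6 were called in CTRL, 1 higher and 5 lower. Btrc, part of another ubiquitin ligase that acts on NRF2, was higher (log2 fold change 0.60, adjusted p = 0.000225), whereas the small MAF partners Maff (-1.80, adjusted p = 0.00202) and Mafk (-0.92, adjusted p = 0.00885) and the KEAP1-binding phosphatase Pgam5 (-0.92, adjusted p = 0.000775) were lower. The list median was -0.26 in CTRL and between -0.11 and -0.32 in the drug groups.
The glutathione list moved in both directions. Of its 30 tested genes, 12 were higher and 4 lower in CTRL, 13 and 4 in GM, 7 and 4 in PIO, and 10 and 4 in PIO+GM, with medians between 0.21 and 0.51. The transferases Gstz1 (1.03 in CTRL, adjusted p = 1.77e-05) and Gstm1 (0.86, adjusted p = 0.000359) and the peroxidase Gpx7 (1.00, adjusted p = 0.000101) were higher at 24 h. Lower were glutathione reductase Gsr (-0.71, adjusted p = 4.53e-05), the transferase Gsto1 (-1.59, adjusted p = 0.000159) and Slc3a2 (-1.42, adjusted p = 0.000168), which encodes the heavy chain that pairs with the Slc7a11 product. Both chains of the exchanger were thus lower at 24 h, and Slc3a2 was lower in all 4 treatments (-1.52 in GM, -1.20 in PIO and -1.33 in PIO+GM).

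In the thioredoxin and peroxiredoxin list, 6 of 16 genes were higher and 2 lower in CTRL, 6 and 2 in GM and PIO, and 7 and 3 in PIO+GM. The thioredoxin inhibitor Txnip (1.85 in CTRL, adjusted p = 1.76e-05) and the sestrins Sesn1 (1.17) and Sesn3 (1.20) were higher, whereas thioredoxin itself, Txn1 (-0.38, adjusted p = 0.0258), and Sesn2 (-1.70, adjusted p = 0.00149), which is also on the ATF4 list, were lower. NADPH supply had 3 of 10 genes higher and 2 lower in CTRL, among them the dehydrogenases Idh1 (1.06) and Idh2 (0.56) and the transhydrogenase Nnt (0.81) as higher and Mthfd2 (-3.22) and Me2 (-0.70) as lower. Of 11 heme and iron genes, 3 were higher and 2 lower in CTRL: biliverdin reductase Blvrb (1.04), the heme transporter Slc48a1 (0.88) and ferrochelatase Fech (0.60) were higher while Abcb6 (-0.82) and Alas1 (-0.36), the first enzyme of heme synthesis, were lower. Of 21 detoxifying enzymes and exporters, 5 were higher and 4 lower in CTRL, with Aldh3a1 (1.92), Cbr1 (0.63) and Nqo2 (0.58) on one side and the reductase Akr1b8 (-1.70), Abcc1 (-0.59) and Esd (-0.44) on the other. Superoxide and peroxide enzymes had 4 of 14 tested genes higher and 0 lower in CTRL, a share near that of all genes, with catalase Cat (1.12, adjusted p = 1.77e-05) and the NADPH oxidase subunits Noxo1 (1.68, adjusted p = 0.000495) and Noxa1 (2.37, adjusted p = 0.00202) among them.
The ATF4 targets called were on 1 side: 13 of 16 were lower and 0 higher in CTRL, 13 and 0 in GM, 12 and 0 in PIO, and 14 and 0 in PIO+GM, with medians between -1.41 and -1.58. Asparagine synthetase Asns (-3.47 in CTRL, adjusted p = 4.84e-07), Psat1 of serine synthesis (-1.95, adjusted p = 4.84e-07) and Mthfd2 (-3.22, adjusted p = 2.03e-05) led it. Slc7a11 has been described as a target of both NRF2 and ATF4 and was not on this list, while Slc3a2, Sesn2 and Mthfd2 are each on it and on another list. Of the PPAR-γ target list, 2 of 11 tested genes were higher in CTRL, among them Acaa2 (1.04), and 3 lower, Pdk4 (-1.08), Plin4 (-1.24) and Cd36 (-1.20), with 5 higher and 0 lower in PIO+GM, among them Acaa2 (1.53) and Angptl4 (1.60).

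**Figure D4:**
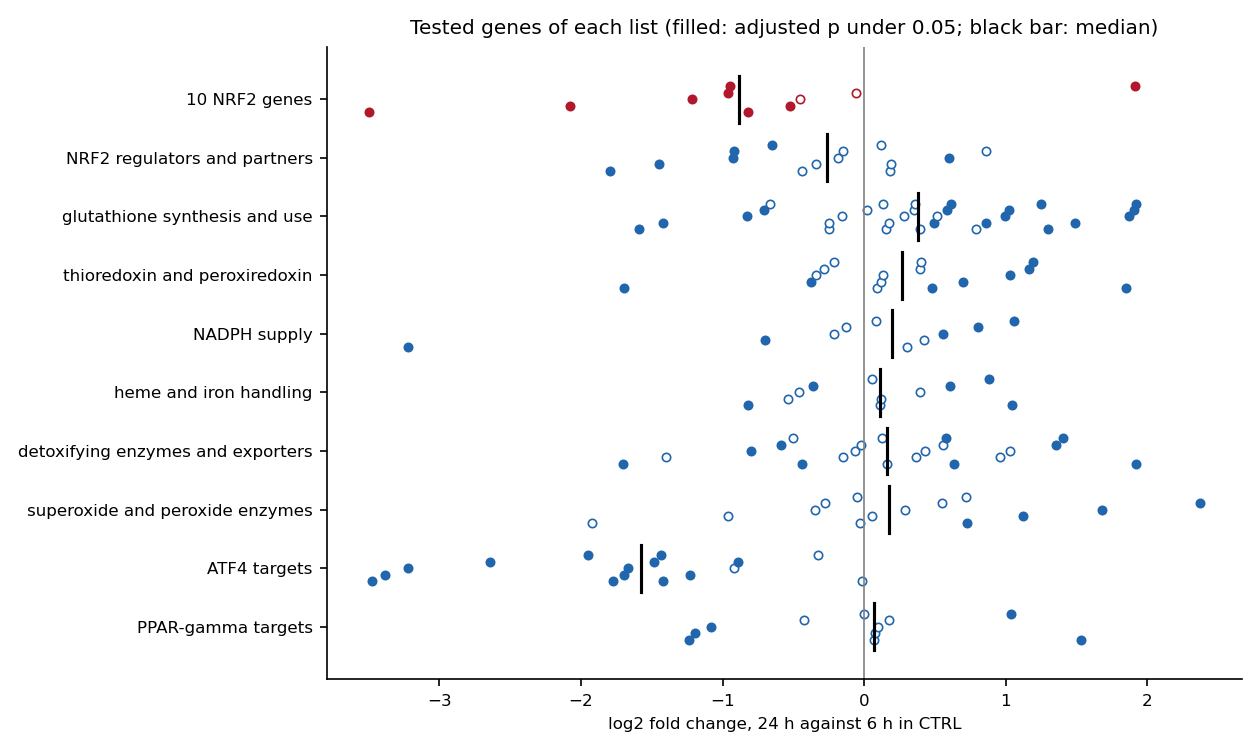
log2 fold change at 24 h against 6 h in CTRL of every tested gene of each list, with the 10 NRF2 genes in red, filled points for an adjusted p under 0.05 and a black bar at the list median. The median is -0.88 for the 10 genes, -1.58 for the ATF4 targets and 0.38 for the glutathione list.

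The study's main question was what gentamicin and pioglitazone change. No gene of the group passed the test in GM against CTRL, at 6 h (0 of 10, all genes 0%) or at 24 h (0 of 10, all genes 0.0123%). None had an unadjusted p under 0.05 at 6 h or at 24 h (all genes 1.49% and 1.67%). DESeq2 called 0 as well. At 24 h the replicate numbers were taken to pair the GM and CTRL libraries, by a rule on their correlations given with the processing. With the number as a block 12 genes of all were called instead of 2 (0.0735%) and again 0 of the 10. The intervals differ in width between the genes: the log2 fold change of Txnrd1 at 24 h was -0.08 (95% interval -0.34 to 0.17) and that of Hmox1 -0.17 (-0.79 to 0.45), whereas that of Srxn1 at 6 h was -0.88 (-1.96 to 0.21) and that of Nqo1 at 6 h 0.91 (-0.29 to 2.11). Each of the last 2 values rested on 1 library: without CTRL replicate 2 that of Srxn1 was 0.09, and without GM replicate 3 that of Nqo1 was 0.04. With the libraries of both pioglitazone states together, again 0 of 10 passed at 6 h (all genes 0.0123%) and at 24 h (all genes 0.313%), also by DESeq2. At an unadjusted p under 0.05 there were 0 of 10 at 6 h and at 24 h (all genes 2.12% and 2.83%). At 24 h the numbers were also taken to pair PIO with PIO+GM. With the block 83 genes of all were called instead of 51 (0.509%) and 0 of the 10. The largest of these pooled values, 0.56 for Nqo1 at 6 h (95% interval -0.29 to 1.40), came from libraries that overlapped. Of the 16 hair cell markers, 0 were called in GM against CTRL at 6 h and at 24 h. Their mean summed level at 24 h was 983 CPM in GM and 1256 CPM in CTRL. A change confined to hair cells was not tested in these pools.

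In PIO against CTRL, 0 of 10 passed at 6 h (all genes 0.337%) and 0 at 24 h (all genes 0.153%), with 1 gene at an unadjusted p under 0.05 at each time (all genes 15.2% and 9.93%), Osgin1 and Slc7a11, and 0 calls by DESeq2. The 24 h libraries of this comparison were also taken as paired by number. The block gave 241 calls over all genes instead of 25 (1.48%) and 0 of the 10. PIO+GM against GM, which asks what pioglitazone adds to gentamicin, gave 0 of 10 at 6 h (all genes 1.32%) and at 24 h (all genes 0.110%), with 3 and 2 genes at an unadjusted p under 0.05 (all genes 25% and 7.47%), and DESeq2 called 1 at 6 h (all genes 8.09%), Keap1, and 0 at 24 h. PIO+GM against CTRL gave 0 of 10 at 6 h (all genes 2.64%) and at 24 h (all genes 0.478%), with 2 and 1 at an unadjusted p under 0.05 (all genes 23.6% and 9.05%) and 0 by DESeq2. These comparisons share their CTRL or GM libraries. Of the 11 tested PPAR-γ targets, PIO against CTRL gave 1 higher and 0 lower at 6 h and 4 and 0 at 24 h, and PIO+GM against GM gave 3 higher and 1 lower, Plin4 (-2.19), at 6 h and 4 and 0 at 24 h. Cpt1a, which carries fatty acids into mitochondria, was higher in PIO against CTRL (log2 fold change 0.88 at 6 h and 1.12 at 24 h) and in PIO+GM against GM (0.77 and 1.06), and Angptl4 was higher at 24 h (3.35 and 2.67).

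Averaging the pioglitazone difference over both gentamicin states, 6 libraries against 6, gives the narrowest intervals. At 6 h 0 of 10 passed (all genes 16.1%), with 5 at an unadjusted p under 0.05 (all genes 33.6%), and at 24 h 0 of 10 (all genes 2.79%), with 4 (all genes 16.9%). DESeq2 called 2 at 6 h (all genes 20.9%), Osgin1 and Keap1, and 1 at 24 h (all genes 5.95%), Slc7a11. By edgeR at 6 h, 4 of 16 hair cell and 3 of 10 endothelial and pericyte markers were lower. So were 2 of 11 fibroblast, 1 of 10 Schwann cell and glia and 1 of 9 tested stria markers, and 1 of 16 macrophage markers was higher. Of 14 supporting cell markers 0 were called. The part of these markers in the 6 h values was not tested.
Osgin1 at 6 h had its lowest, median and highest library at 1.51, 2.00 and 2.49 log2 CPM without pioglitazone and at 0.53, 0.87 and 1.86 log2 CPM with it, which overlap. Its log2 fold change was -0.89 (95% interval -1.52 to -0.25, adjusted p = 0.0522) at 6 h and -0.88 (-1.56 to -0.20, adjusted p = 0.163) at 24 h. After each library's trend on GC content was removed, the 6 h value was -0.59 (adjusted p = 0.174), and 60.1% of the bases of Osgin1 are G or C.
Keap1 at 6 h had 5.94, 6.08 and 6.39 log2 CPM without pioglitazone and 5.42, 5.70 and 6.33 log2 CPM with it. The log2 fold change was -0.34 (95% interval -0.58 to -0.09, adjusted p = 0.0539) at 6 h and -0.02 (-0.26 to 0.22) at 24 h. In PIO+GM against GM at 6 h, where the libraries did not overlap, it was -0.56 (adjusted p = 0.0757), with 6.08, 6.09 and 6.39 log2 CPM in GM and 5.88, 5.52 and 5.48 log2 CPM in PIO+GM. With the GC trend removed the averaged value at 6 h was -0.01 (adjusted p = 0.911) and that in PIO+GM against GM was -0.08 (adjusted p = 0.640).

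Gclc had a positive log2 fold change in PIO against CTRL, PIO+GM against GM and PIO+GM against CTRL at both times, between 0.16 and 0.40. At 24 h its lowest, median and highest library was at 5.15, 5.41 and 5.57 log2 CPM without pioglitazone and at 5.59, 5.75 and 5.83 log2 CPM with it, without overlap. The averaged log2 fold change was 0.33 at 24 h (95% interval 0.11 to 0.54, adjusted p = 0.0911) and 0.27 at 6 h (0.06 to 0.49, adjusted p = 0.0716), and with the GC trend removed 0.33 and 0.27. Gclm was at 0.32 (0.03 to 0.60, adjusted p = 0.110) at 6 h and 0.13 (-0.16 to 0.41) at 24 h.
Nqo1 at 24 h ranged from 4.91 to 5.35 log2 CPM without pioglitazone and from 4.02 to 4.63 log2 CPM with it, so that the 6 and 6 libraries did not overlap. The log2 fold change was -0.67 with a wide interval (-1.48 to 0.14, adjusted p = 0.411) in the model that takes 1 spread per gene from both times. In a model of the 24 h libraries alone it was -0.68 with an adjusted p of 0.00774, and 8.68% of all genes were called. The summed level of the 11 fibroblast and mesenchyme markers separated the same libraries, at 8195 to 9690 CPM without pioglitazone and 5684 to 6997 CPM with it, with 4 of the 11 called lower and 0 higher, and none was at 0 in any library. Its part in the Nqo1 and Gclc values was not tested.
For Slc7a11 the value was above 0 at 6 h and below 0 at 24 h, and neither passed the main test with all libraries. Without CTRL replicate 2 at 24 h, edgeR's quasi-likelihood test called the 24 h value with no block (-1.04, adjusted p = 0.0231). The likelihood ratio test and DESeq2 also called the 24 h value with all libraries and no block. The averaged log2 fold change was 0.62 (95% interval 0.06 to 1.18, adjusted p = 0.113) at 6 h and -0.85 (-1.43 to -0.27, adjusted p = 0.104) at 24 h. At 6 h the libraries ranged from 7.45 to 8.08 log2 CPM without pioglitazone and from 7.64 to 8.62 log2 CPM with it, at 24 h from 4.36 to 6.11 log2 CPM and from 3.80 to 5.28 log2 CPM, with overlap at both times. Set against the library of the same number, Slc7a11 was higher with pioglitazone in 5 of 6 libraries at 6 h and lower in 6 of 6 at 24 h. With the replicate number as a block Slc7a11 was called at both times, at 0.60 (adjusted p = 0.0172, all genes 27%) at 6 h and at -0.79 (adjusted p = 0.0119, all genes 7.3%) at 24 h. By the rule given with the processing, the numbers were not taken to pair the libraries at 6 h. At 24 h they were taken to pair PIO with CTRL but not PIO+GM with GM. The remaining genes had averaged values between -0.23 and 0.41, with intervals that reach 0 except for Nfe2l2 at 24 h (-0.23, -0.41 to -0.04, adjusted p = 0.185).

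**Figure D5:**
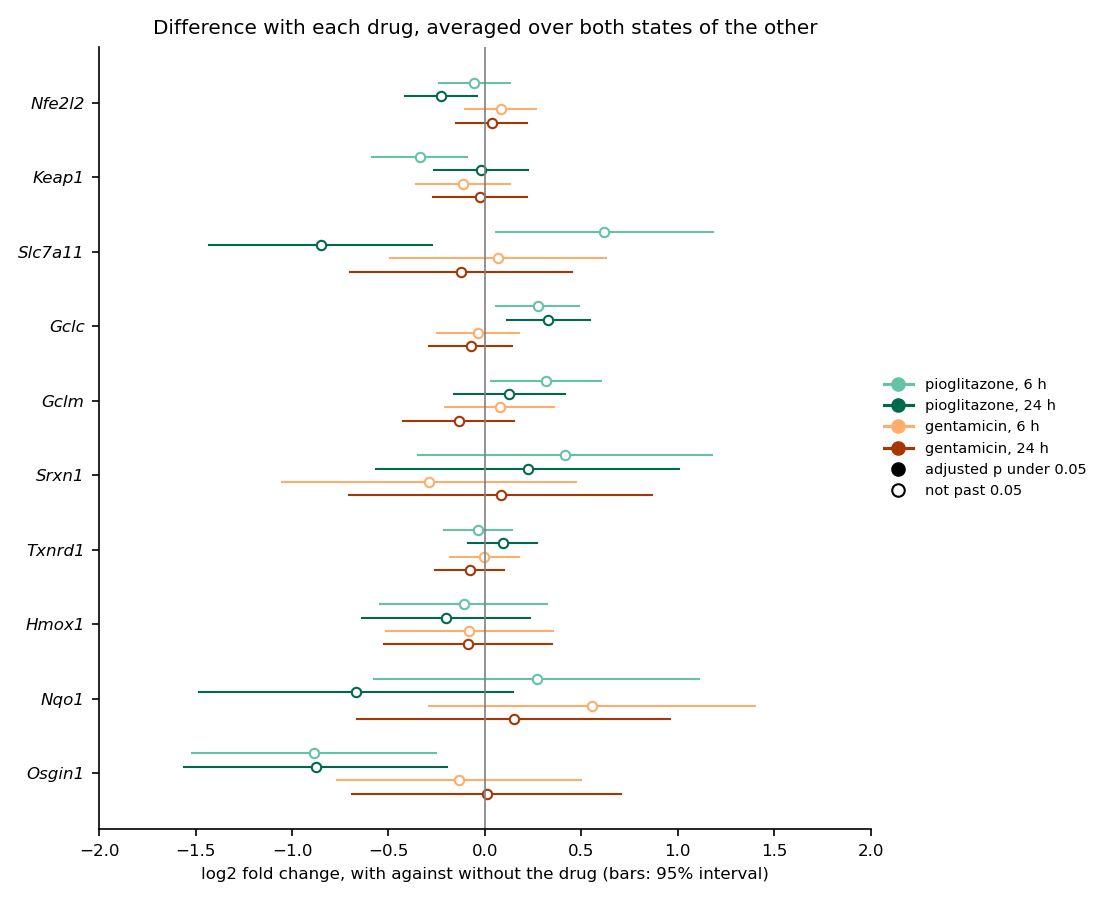
log2 fold change of each gene with against without pioglitazone (green, light at 6 h and dark at 24 h) and with against without gentamicin (orange, light at 6 h and dark at 24 h), each averaged over both states of the other drug, with 95% intervals as bars. All points are open, since no adjusted p was under 0.05, and Slc7a11 with pioglitazone is at 0.62 at 6 h and at -0.85 at 24 h.

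Whether a drug difference itself changed with time or with the other drug was tested as an interaction. For pioglitazone by gentamicin, 0 of 10 genes passed at 6 h and at 24 h, as did 0% of all genes. None of the 10 had an unadjusted p under 0.05 at 6 h or at 24 h (all genes 1.8% and 1.21%). For the gentamicin difference between the times, 0 of 10 passed (all genes 0%), and likewise for the pioglitazone difference between the times (all genes 0%), where Slc7a11 alone had an unadjusted p under 0.05 (all genes 4.38%). DESeq2 called 0 of the 10 in these 4 tests. For the averaged pioglitazone difference, a test chosen after the data were seen, 0 of 10 passed by edgeR or DESeq2, 1 gene of all did by edgeR (0.00613%), and Slc7a11 alone had an unadjusted p under 0.05 (all genes 10.1%). Slc7a11 had a difference of -1.47 on the log2 scale between the times (95% interval -2.28 to -0.66, adjusted p = 0.285), and its adjusted p over 12 alternatives ranged from 0.0284 (with the block) to 0.688. The larger fold of Slc7a11 between 24 and 6 h in PIO and PIO+GM than in CTRL and GM is thus not shown to differ once all genes are adjusted for.

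In the other lists, counts with pioglitazone at 6 h are to be set beside the 16.1% of all genes called. At 6 h, averaged over both gentamicin states, Glrx (glutaredoxin, log2 fold change 0.55, adjusted p = 0.0138) was higher and Gpx1 (-0.70, adjusted p = 0.00719) lower, 2 of 30 tested glutathione genes. Of the thioredoxin list 4 of 16 were higher, among them Sesn1 (0.43), Txnrd3 (0.38) and Prdx1 (0.52), and of the 11 heme and iron genes Fech (0.32) was higher and Alas1 (-0.39) and Abcb6 (-0.44) lower. Sod1 (0.27) was higher and Noxo1 (-0.66) lower of 14 superoxide genes, Tkt (-0.42) was lower of 10 NADPH genes, and 4 of 11 PPAR-γ targets were higher, among them Cpt1a (0.82), Acadl (0.50) and Pdk4 (1.23), and 1 lower, Plin4 (-1.90). At 24 h, with 2.79% of all genes called, 5 of 11 PPAR-γ targets were higher and 0 lower. Akr1b8 was lower at 6 h (-1.37, adjusted p = 0.00135) and Aldh3a1 at 24 h (-1.39, adjusted p = 0.0273), each as 1 of 21 detoxifying genes. Of 14 NRF2 regulators and of 16 ATF4 targets, 0 were called at either time by edgeR, with 2 and 0 regulators and 0 and 1 ATF4 targets at an unadjusted p under 0.05 at 6 and 24 h (all genes 33.6% and 16.9%). The lowest adjusted p among them was that of Mafg at 6 h (-0.39, adjusted p = 0.0713).

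The genes were also compared among themselves apart from time. After the mean of each time point was subtracted, the highest Pearson correlation between members over 24 libraries was 0.70, for Slc7a11 and Nfe2l2, followed by 0.69 for Hmox1 and Osgin1 and 0.69 for Gclc and Gclm. Srxn1 and Slc7a11, with the largest falls, had 0.12. The lowest were -0.60 for Nqo1 and Srxn1, -0.44 for Slc7a11 and Keap1 and -0.39 for Gclc and Keap1. These are descriptions: the libraries share their groups, and they differ in depth and base composition. The genes most like each member by the same measure, out of all tested, were Gnb2 (0.97), Cenpb (0.96) and Chst14 (0.95) for Keap1, Eaf1 (0.89), Hbegf (0.85) and Nop16 (0.85) for Srxn1, and Phkg1 (0.88), Cpeb2 (0.83) and Rmst (0.83) for Slc7a11. For Hmox1 they were H2-Q4 (0.85), Epas1 (0.84) and Clec3a (0.83), for Osgin1 Il4ra (0.87), Serpina3n (0.86) and Ecm1 (0.86), and for Nqo1 Gabpb2 (0.84), Aox1 (0.82) and Ddit4l (0.82). For Gclc they were Malat1 (0.86), Tgoln1 (0.83) and a gene without a symbol (0.84), for Gclm Rbl2 (0.80), Herpud2 (0.80) and Skap2 (0.79), for Txnrd1 Psen2 (0.82), Orai1 (0.80) and Atp6v0a2 (0.80), and for Nfe2l2 Fgf5 (0.80), Tgtp1 (0.80) and Fxyd3 (0.79). No member of the group was among the 3 genes most like another member.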

How the data were processed

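The authors mapped the reads of stranded total RNA libraries with STAR to the mouse genome (mm10 per the labels) and deposited whole-number counts of reads starting within RefSeq exons of a gene, made with qCount of QuasR, without normalization or filter. The use of strand and of reads with several matches in counting is not given in the sources used here. Identifiers were matched to symbols for 24374 of 24454 genes. The main test was edgeR's quasi-likelihood test (version 4.0.16, R 4.3.3) on these counts, with TMM scaling, filterByExpr and 1 model of 8 group means, with Benjamini-Hochberg adjustment over 16317 genes and a threshold of 0.05. Each standard error is the fold change over the root of F, log2 CPM used a prior count of 2, and RPKM used the deposited lengths. The common biological coefficient of variation was 0.225. Alternatives included DESeq2 1.42.0, other scalings and filters, removal of each library's GC trend (94.3% of tested genes have a GC value), a replicate block and leaving out each library. Libraries of 1 group differed by far more than sampling noise (chi-square per degree of freedom 10.2 to 77.8). Figures were drawn with matplotlib.

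The numbers in the labels were taken to pair libraries where each of the 3 pairs deviated together with a correlation over 0.1, which held at 24 h for GM against CTRL (0.43, 0.72 and 0.59), PIO against CTRL (0.11, 0.56 and 0.23) and PIO+GM against PIO (0.31, 0.69 and 0.42), so for both arms of the averaged gentamicin comparison, and at 6 h for GM and PIO (0.18, 0.43 and 0.68), which are not compared here. The labels give only the number, so this pairing is read from the data and depends on the limit of 0.1. PIO+GM against GM at 24 h (0.03, 0.63 and 0.39) missed it. The 10 genes and all lists were chosen with earlier results of these data known, so no list is independent support. In each list, up to 3 genes per direction with the lowest p among those called were named, or at most 1 if none was called, and up to 3 genes most like each member. Most of these are given for CTRL and the averaged pioglitazone comparison, and others that the rule allows are not reported here. An exact permutation test of 3 against 3 libraries cannot give a p under 0.1, so none was used.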

Additional observations from a re-analysis of the deposited data

How the results depend on the processing

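Nfe2l2, Slc7a11, Gclc, Srxn1 and Txnrd1 were called lower at 24 h in all 4 treatments under each of 18 alternatives (12 settings and 6 left-out libraries), and no called value changed sign. Of 4349 recomputed values of the 10 genes, 48 gained and 25 lost a call. Counts of members changed with pioglitazone, 0 in the values reported, moved as follows, with the share of all genes called in the same setting in brackets. In PIO+GM against GM at 6 h DESeq2 gave 1 [8.09%], the replicate block 2, Slc7a11 higher and Keap1 lower [12.2%], and the block with the GC trend removed 1, Srxn1 [4.16%]. In the averaged comparison at 6 h library totals alone gave 1, Gclc [16.1%], the likelihood ratio test and DESeq2 2 each [17.7% and 20.9%], the block 3, Slc7a11, Osgin1 and Keap1 [27%], and the block with the GC trend removed 2, Srxn1 and Nfe2l2 [17.9%]. At 24 h the likelihood ratio test, DESeq2 and the block gave 1, Slc7a11 [4.84%, 5.95% and 7.3%], the block with the GC trend removed 2, Gclc and Slc7a11 [13.2%], and a model of the 24 h libraries 2, Nqo1 and Gclc [8.68%]. The interaction of the averaged difference with time gave 1, Slc7a11, with the block [0.227%]. Leaving out 1 library gave 0 to 2 in PIO+GM against GM and against CTRL at 6 h and in the averaged comparison at 6 h, and 0 to 1 at 24 h. The counts of 2, Osgin1 and Keap1, came without PIO+GM replicate 1 [24.4% against GM, 21.5% against CTRL and 30.6% averaged] or, in the averaged comparison, also without PIO replicate 3 [25.5%]. There CTRL replicate 2 or 3 left out gave 1, Gclc or Osgin1 [14.1% or 12%], and the 1 at 24 h, Slc7a11, came without CTRL replicate 2 [2.32%]. Between the times, the 12 settings gave counts of 5 to 9 in CTRL, 7 to 10 in GM, 6 to 8 in PIO and 7 to 8 in PIO+GM. Counts between the times in CTRL, 8 as reported, were 5 to 8 when 1 library was left out, with 5 without CTRL replicate 2 at 6 h and also without all 6 h libraries of replicate number 2, and Hmox1, Nqo1 and Osgin1 lost their calls in both. The last setting and a covariate of the olfactory receptor level were added after the data were seen. The cause was not tested. Same-numbered libraries correlated by 0.11 on average at 6 h (-0.31 to 0.68) and 0.38 at 24 h (-0.02 to 0.72), and 8 and 11 of 12 were closest to a library of their own number. Outside the comparisons taken as paired, the block is thus only a hint from the data. Between the times its blocks lie within 1 time point, and its errors are then too small. The depth limits Osgin1 most, with as few as 9 counts.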
